A study of Mus musculus with 6 samples.

Results

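The 36 genes described here encode the enzymes that build cholesterol and fatty acids, the regulators that switch those enzymes on and off, and a pair of sterol transport proteins. They were taken as a named list of mouse genes and matched by gene symbol through the RefSeq transcript given for each array probe. All 36 of the 36 were measured, among 15535 named genes that could be tested. They fell into 5 regulators, 18 sterol synthesis genes, 2 sterol transport genes and 11 fatty acid synthesis genes. RNA came from MC3T3-E1, a clonal mouse pre-osteoblast line that can form mineralised matrix. In the De-HA group (n = 3) the cells had grown for 3 days, in 24-well plates, on a scaffold that was dealloyed, meaning that part of the metal was leached out of it, and then coated with bioactive material. In the FeMnSi group (n = 3) they had grown for the same time on the original scaffold, named for iron, manganese and silicon. Both groups grew on metal scaffold, so every value below compares one scaffold with the other and none with cells on plain plastic. RNA of each sample was labelled with Cy3 and hybridised to 1 single-colour Agilent mouse array.

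Cells assemble cholesterol from acetyl-CoA through mevalonate, the isoprenoid diphosphates, squalene and lanosterol, and they build fatty acids from the same acetyl-CoA by carboxylation, chain synthesis, elongation and desaturation. Both branches are controlled by SREBP transcription factors. When sterols are scarce, the escort protein SCAP carries the SREBP precursors from the endoplasmic reticulum to the Golgi for cleavage, and when sterols are plentiful the INSIG proteins hold them back. Excess cholesterol is sensed as oxysterols by the liver X receptors, which induce the efflux pump ABCA1. In bone-forming cells, cholesterol and the isoprenoids of the mevalonate pathway take part in signalling and protein prenylation, and farnesyl diphosphate synthase is the enzyme blocked by nitrogen-containing bisphosphonate drugs.

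Only 2 of the 36 genes passed the test of De-HA against FeMnSi (limma, Benjamini-Hochberg adjusted p under 0.05 over all 15535 genes), which is 5.56% of them, beside 10.7% of all genes tested. Both were higher in De-HA, against a share of 6.37% of all genes called higher, and none was lower, against 4.31%. The balance of calls over all genes, 989 higher and 669 lower, depended on the scaling and was 685 higher and 880 lower under quantile normalization, where the same 2 of the 36 passed. They were Abca1, the cholesterol and phospholipid efflux pump, at 1.96-fold, and Fads3, a member of the fatty acid desaturase family, at 1.49-fold. None of the 18 sterol synthesis genes and none of the 5 regulators passed. Without adjustment, 9 of the 36 had a p under 0.05, or 25%, beside 33.7% of all genes; 8 of them were higher in De-HA (23% of all genes) and 1 was lower (10.7%). The log2 fold change was positive for 23 of the 36 (63.9%), beside 63.3% of all genes. Of the 34 genes that did not pass, all had a 95% confidence interval of the difference within 2-fold in either direction, and 28 had one within 1.5-fold. The median log2 fold change of the 36 genes was 0.047, beside 0.10 for all genes tested.

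**Figure D1:**
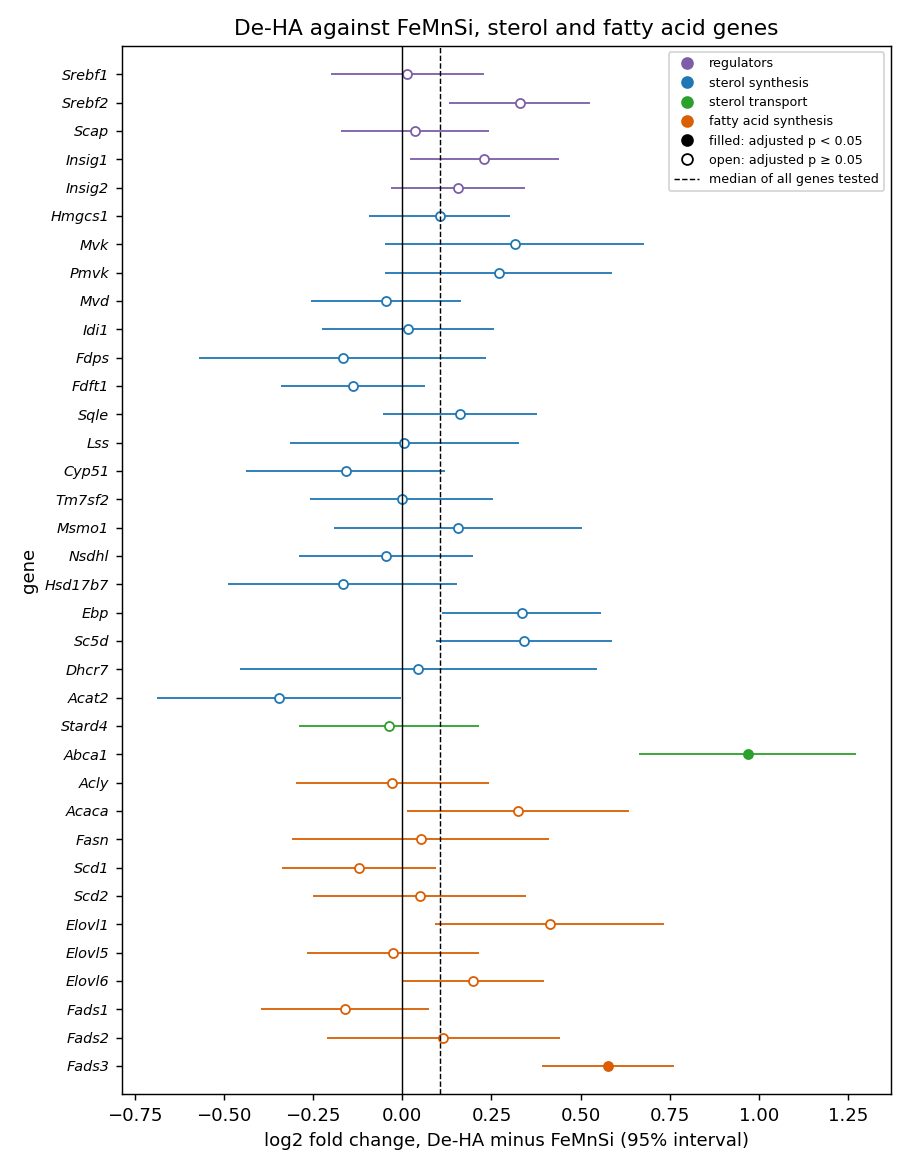
Log2 fold change of each of the 36 genes, De-HA minus FeMnSi (horizontal axis), with its 95% confidence interval, over 3 arrays per group; genes run down the page in the order regulators, sterol synthesis, sterol transport, fatty acid synthesis. Filled circles mark the 2 genes with an adjusted p under 0.05, Abca1 at 0.97 and Fads3 at 0.58; the other 34 lie between -0.35 and 0.41, around the dashed line that marks the median of all genes tested at 0.10.

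The promoters of the genes that passed are shown because SREBP and liver X receptor control act there. That of Hmgcs1 is shown too. Among the 29 genes that had a promoter, it alone held a match to the form of the sterol regulatory element that was searched. RefSeq (GRCm38.p6) gave a promoter of 300 bases, 250 before and 50 after the start of transcription, for 29 of the 36 genes, some with several starts, 38 promoters in all. The motifs searched, on both strands, were TCACNCCAC (a form of the sterol regulatory element), CCAAT (the NF-Y box, bound by a partner of SREBP), CACGTG (an E-box) and AGGTCA followed by any 4 bases and AGGTCA again (the repeat bound by the liver X receptor, called DR4). DR4 was allowed 2 mismatches at first and 3 after the Abca1 promoter was seen to hold no match. Capitals mark a match on either strand: CACGTG and DR4 with 3 mismatches in Abca1, CCAAT in Fads3, and TCACNCCAC, CCAAT and DR4 with 3 mismatches in Hmgcs1. The Abca1 promoter lies at chr4:53159846-53160145 on the minus strand, that of Fads3 at chr19:10041298-10041597 on the plus strand, and that of Hmgcs1, the gene of cytosolic HMG-CoA synthase, at chr13:119690101-119690400 on the plus strand.
Abca1: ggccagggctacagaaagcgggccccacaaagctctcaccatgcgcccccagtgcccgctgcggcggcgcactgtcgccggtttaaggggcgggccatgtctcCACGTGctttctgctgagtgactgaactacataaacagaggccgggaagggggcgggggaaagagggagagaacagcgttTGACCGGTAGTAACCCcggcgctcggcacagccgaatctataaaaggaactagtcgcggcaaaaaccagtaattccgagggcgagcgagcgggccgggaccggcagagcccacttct
Fads3: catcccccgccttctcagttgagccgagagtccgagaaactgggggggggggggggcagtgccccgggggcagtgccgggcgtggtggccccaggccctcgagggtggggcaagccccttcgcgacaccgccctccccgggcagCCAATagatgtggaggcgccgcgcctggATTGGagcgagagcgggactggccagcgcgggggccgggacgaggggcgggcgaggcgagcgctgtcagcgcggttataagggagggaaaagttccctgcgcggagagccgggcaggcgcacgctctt
Hmgcs1: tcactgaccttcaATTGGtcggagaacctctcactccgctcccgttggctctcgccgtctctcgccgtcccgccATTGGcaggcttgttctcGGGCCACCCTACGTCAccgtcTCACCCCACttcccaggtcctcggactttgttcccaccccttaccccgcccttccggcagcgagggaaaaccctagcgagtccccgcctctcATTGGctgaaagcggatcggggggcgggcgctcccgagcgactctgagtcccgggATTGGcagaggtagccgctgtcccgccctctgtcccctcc

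In the Abca1 promoter CACGTG stood at -147 to -142 from the start of transcription, and the DR4 match at -67 to -52, on the minus strand. Among promoters of all genes, CACGTG was found in 7.15% and DR4 with 3 mismatches in 21.9%, so neither is rare. The Fads3 promoter held CCAAT at -106 to -102 and, on the minus strand, at -78 to -74, and no match to the other motifs. CCAAT was the motif most shared by the 29 genes: 24 of their 38 promoters (63.2%) held it, beside 37.4% of all 32851 promoters in the table. CACGTG was found in 8 of the 38 (21.1%), which belong to 7 genes, Abca1, Dhcr7, Elovl5, Hsd17b7, Insig1, Sc5d and Scap. DR4 with 2 mismatches was found in 1 of the 38, a promoter of Dhcr7 (2.63%, beside 3.02% of all), and with 3 mismatches in 13 (34.2%). TCACNCCAC was found only in Hmgcs1, at -137 to -129, which is 2.63% of the 38, beside 1.24% of all. A match is a run of letters and not a site of binding, and a promoter without one tells nothing about the factor.

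Of all probes, 63.5% to 74.4% stood well above background on De-HA arrays and 69.2% to 73.2% on FeMnSi arrays, and no spot was saturated. Signals are given below on a scale on which the 75th percentile of each array is 100, and because probes differ in brightness they are compared between arrays and not between genes. The 36 genes had 49 probes, all kept, and the probe that stood for each gene was well above background on all 6 arrays. Arrays with the same scan time are called a slide here, and the slide was read from scan times alone. All De-HA arrays and FeMnSi 1 formed slide 1, and the remaining FeMnSi arrays slide 2. A slide 1 value below is the De-HA mean minus FeMnSi 1, which is also the estimate with slide as a block, and slide 2 gives none because it held FeMnSi arrays alone. That block sets 3 arrays against 1, and its test assumes that FeMnSi 1 varies like the other arrays. With it, 194 of the 15535 genes passed (1.25%), and among the 36 only Abca1. Leaving out FeMnSi 1 sets slide 1, all De-HA, against slide 2, all FeMnSi. Passes given below without FeMnSi 1 therefore cannot tell scaffold from slide. Whether replicates came from separate cultures is not stated in the labels, so a p-value here measures the spread between samples, and that spread may be technical.

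The cell type of the labels was checked against markers. All 8 osteoblast markers (Runx2, Sp7, Alpl, Col1a1, Col1a2, Ibsp, Sparc, Bglap2) were well above background on all 6 arrays. Of these 8, 4 were called higher in De-HA (50%, beside 6.37% of all genes). The arrays of the groups were apart, De-HA higher, for all 8, which held for 26.2% of all genes. Their summed signal was 27933 to 32454 in De-HA and 19335 to 24600.2 in FeMnSi, but nearly all of it came from Col1a1, Col1a2 and Sparc, none of them called, whose log2 fold changes of 0.44, 0.46 and 0.47 became 0.09, 0.09 and 0.10 under quantile normalization. Of 10 adipocyte markers, Adipoq, Lep and Cidec were above background on no array. Of the 7 tested, Fabp4 alone was called, lower in De-HA (14.3%, beside 4.31% of all genes). The other 6 log2 fold changes were positive (85.7% of the 7, beside 63.3% of all genes), none of them called. Plin1 and Cfd were well above background on only 3 of the 6 arrays. The summed signal of the 7 was 33.3 to 37.2 in De-HA and 38.1 to 43.8 in FeMnSi, and without Fabp4 it was 29.3 to 32.0 in De-HA and 22.4 to 27.3 in FeMnSi. Of 7 macrophage markers 6 were tested, 2 were called higher (Ptprc, Adgre1) and 1 lower (Lyz2), which is 50% called, beside 10.7% of all genes. Their summed signal was 409 to 459.8 in De-HA and 307 to 436 in FeMnSi, most of it from Itgam, and without Itgam it was 118 to 135 in De-HA and 82.0 to 102 in FeMnSi. Of 6 endothelial markers Cdh5 and Tek were above background on no array and Cldn5 on 1. Of the 3 tested, Kdr and Esam were called higher (66.7%, beside 6.37% of all genes), and the summed signal was 85.3 to 94.6 in De-HA and 65.8 to 69.0 in FeMnSi. With slide as a block no osteoblast, macrophage or endothelial marker passed, and Fabp4 did. A sum gives most weight to the brightest probes. The part of these marker differences in the results on sterol and fatty acid genes was not tested. In RNA from whole cultures, fewer cells of a type and less RNA per cell cannot be told apart.

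Among the regulators, none of the 5 passed. All 5 log2 fold changes were positive, beside 63.3% of all genes, with a median of 0.16, beside 0.10 for all genes. Under quantile normalization 2 of the 5 changed sign and the median of the 5 was 0.05. Srebf2, which encodes SREBP-2, the main activator of the sterol branch, had signals of 56.6, 58.4 and 58.7 in De-HA 1, 2 and 3 and 46.7, 43.5 and 48.3 in FeMnSi 1, 2 and 3. The groups did not overlap, which held for 26.2% of all genes in this direction. The log2 fold change was 0.33 ± 0.08 (SE), with an adjusted p of 0.0523, just outside the threshold, and 0.31 within slide 1. The other Srebf2 probe gave 0.55. The call turned on the setting: Srebf2 passed in 4 of 19 alternatives, one of them without FeMnSi 1 (adjusted p = 0.0408), where group and slide coincide.

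Insig1 encodes a protein that retains SCAP in the endoplasmic reticulum when sterols are plentiful. The gene had signals of 84.0, 78.5 and 83.0 in De-HA 1, 2 and 3 and 66.9, 67.6 and 74.9 in FeMnSi 1, 2 and 3. All De-HA arrays lay above all FeMnSi arrays, by a log2 fold change of 0.23 ± 0.09 (SE) that did not pass (adjusted p = 0.124). Insig2, its less sterol-responsive relative, had 615, 655 and 625 in De-HA and 575, 555 and 570.0 in FeMnSi. Its arrays were also apart, with a log2 fold change of 0.16 ± 0.08 (SE, adjusted p = 0.201), and 0.26 by its other probe. Srebf1, which encodes SREBP-1, the main activator of the fatty acid branch, had 16.2, 16.3 and 17.2 in De-HA and 15.2, 16.7 and 17.5 in FeMnSi. Scap, the gene of the escort protein, had 194, 189.9 and 187 in De-HA and 172, 192 and 194 in FeMnSi. For both genes the arrays of the groups overlapped, with log2 fold changes of 0.01 ± 0.09 for Srebf1 and 0.04 ± 0.09 for Scap (SE), and both changed sign under quantile normalization.

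The sterol synthesis branch did not pass in any of its 18 genes, and 3 had an unadjusted p under 0.05 (16.7%, beside 33.7% of all genes). Of the 18 log2 fold changes 10 were positive and 8 negative, with a median of 0.01, and 14 intervals lay within 1.5-fold. The widest bound of an interval was 1.61-fold. The median was -0.13 within slide 1 and -0.08 under quantile normalization. The arrays of the groups were apart for 3 genes that were higher in De-HA (Sqle, Ebp and Sc5d) and 2 that were lower (Fdft1 and Acat2), together 27.8%, beside 39.6% of all genes.

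The early steps lead from acetyl-CoA to mevalonate. Acat2, which encodes the cytosolic thiolase that joins a pair of acetyl-CoA molecules, had signals of 87.7, 68.8 and 75.8 in De-HA 1, 2 and 3 and 116, 88.7 and 90.9 in FeMnSi 1, 2 and 3. It was the lowest of the 36 log2 fold changes, at -0.35 ± 0.14 (SE, adjusted p = 0.146), with the De-HA arrays below all FeMnSi arrays. FeMnSi 1 stood highest, and the slide 1 value was -0.59. Hmgcs1 encodes the HMG-CoA synthase of the cytosol, and its promoter held the TCACNCCAC match printed above. Its signals were 1828, 1871 and 1776 in De-HA and 1795, 1641 and 1660.3 in FeMnSi. Its groups overlapped at FeMnSi 1, and its log2 fold change of 0.10 ± 0.08 (SE, adjusted p = 0.395) lay at the median of all genes; the 95% interval ran from -0.09 to 0.30.

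The next 4 genes turn mevalonate into the isoprenoid unit. Mvk, mevalonate kinase, had 608, 642 and 664 in De-HA 1, 2 and 3 and 631, 419 and 509 in FeMnSi 1, 2 and 3, and Pmvk, phosphomevalonate kinase, had 605, 683 and 672 in De-HA and 629, 456 and 552 in FeMnSi. In both genes FeMnSi 2 was lowest and FeMnSi 3 next, while FeMnSi 1 lay among the De-HA arrays. The log2 fold changes were 0.31 ± 0.15 for Mvk (SE, adjusted p = 0.188) and 0.27 ± 0.13 for Pmvk (adjusted p = 0.195), but only 0.01 and 0.05 within slide 1. The other probe of Mvk gave 0.29 and that of Pmvk gave -0.00064. Mvd, mevalonate diphosphate decarboxylase, had 30.4, 30.3 and 30.4 in De-HA and 33.3, 28.9 and 31.8 in FeMnSi, and Idi1, isopentenyl diphosphate isomerase, had 2504, 2499 and 2539 in De-HA and 2735, 2220.1 and 2532 in FeMnSi. In both the De-HA arrays were nearly equal and lay between FeMnSi 1, the highest, and FeMnSi 2, the lowest. Their log2 fold changes were -0.05 ± 0.09 for Mvd and 0.02 ± 0.10 for Idi1 (SE). Idi1 passed in the opposite direction, at -0.26 (adjusted p = 0.0364), with normexp background correction and quantile normalization.

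Fdps, farnesyl diphosphate synthase, had 882, 1099 and 1149.5 in De-HA 1, 2 and 3 and 1446, 1078 and 1009 in FeMnSi 1, 2 and 3. De-HA 1 was lowest and FeMnSi 1 highest, so the log2 fold change of -0.17 ± 0.17 (SE, adjusted p = 0.505) became -0.48 within slide 1. Fdft1, squalene synthase, which commits farnesyl diphosphate to sterols, had 91.5, 81.8 and 84.4 in De-HA and 95.5, 95.9 and 92.1 in FeMnSi. Its De-HA arrays lay just below all FeMnSi arrays, at -0.14 ± 0.08 (SE, adjusted p = 0.274), whereas its dimmer probe gave 0.30. Sqle, squalene epoxidase, a rate-limiting step after HMG-CoA reductase, had 2925, 3007 and 2946 in De-HA and 2882, 2466 and 2602 in FeMnSi. Its De-HA arrays lay above FeMnSi 1 by a small margin and the log2 fold change was 0.16 ± 0.09 (SE, adjusted p = 0.240), turning to -0.08 under quantile normalization. Lss, lanosterol synthase, had 31.3, 24.8 and 25.8 in De-HA and 31.0, 24.4 and 26.1 in FeMnSi, and replicate 1 of both groups stood above replicates 2 and 3, leaving a log2 fold change of 0.01 ± 0.13 (SE).

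The later enzymes trim lanosterol to cholesterol. Cyp51, lanosterol demethylase, had 341, 278 and 281 in De-HA 1, 2 and 3 and 304, 345 and 354 in FeMnSi 1, 2 and 3, with De-HA 1 among the FeMnSi arrays and a log2 fold change of -0.16 ± 0.12 (SE, adjusted p = 0.361). Hsd17b7, the keto-reductase of the demethylation complex, had 141, 104 and 105 in De-HA and 129, 125 and 133 in FeMnSi. De-HA 1 was here the highest of the 6 arrays and De-HA 2 and 3 the lowest, for a log2 fold change of -0.17 ± 0.13 (SE), and -0.17 by the other probe. Msmo1, the sterol methyl oxidase, had 2839, 3008 and 3092 in De-HA and 3162, 2166 and 2788 in FeMnSi, and Nsdhl, the decarboxylating dehydrogenase of the same complex, had 29.9, 32.8 and 32.5 in De-HA and 36.4, 30.1 and 31.9 in FeMnSi. The groups overlapped in both, with log2 fold changes of 0.16 ± 0.15 for Msmo1 and -0.04 ± 0.10 for Nsdhl (SE). The other Nsdhl probe gave -0.29.

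Tm7sf2, a sterol reductase of the same stretch, had 65.7, 66.4 and 63.8 in De-HA 1, 2 and 3 and 72.8, 57.4 and 66.8 in FeMnSi 1, 2 and 3, centred on the same level. Its log2 fold change was -0.00085 ± 0.11 (SE), the closest to 0 of the 36, whereas its other probe gave 0.20. Ebp, the sterol isomerase, had 482, 522 and 524 in De-HA and 440.2, 389 and 385 in FeMnSi, and Sc5d, the sterol desaturase that follows it, had 873, 924 and 889 in De-HA and 793, 637 and 699 in FeMnSi. These 2 consecutive steps had the highest log2 fold changes of the branch, with the arrays apart: 0.33 ± 0.09 for Ebp (SE, adjusted p = 0.0653) and 0.34 ± 0.10 for Sc5d (adjusted p = 0.0788). FeMnSi 1 was nearest to De-HA in both, and the slide 1 values were 0.21 for Ebp and 0.18 for Sc5d. Without FeMnSi 1, where group and slide cannot be told apart, Ebp passed at an adjusted p of 0.0273, Sc5d at 0.0255 and Mvk at 0.0333. Dhcr7, which makes cholesterol in the last step, had 12.6, 13.1 and 12.5 in De-HA and 15.4, 8.68 and 14.1 in FeMnSi; De-HA lay in a narrow band and FeMnSi 2 far below, giving 0.05 ± 0.21 (SE), the least precise value of the 36.

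The FeMnSi arrays differed among themselves more than the De-HA arrays did in most of these genes. The SD of the log2 signals was larger in FeMnSi for 29 of the 36 (80.6%, beside 63.9% of all genes), with a median of 0.0649 in De-HA and 0.130 in FeMnSi; over all genes it was 0.113 in De-HA and 0.156 in FeMnSi. In the sterol synthesis branch FeMnSi 2 was the lowest of the 6 arrays for 11 of 18 genes (61.1%, beside 36% of all genes) and FeMnSi 1 the highest for 8 (44.4%, beside 13.3%). In 5 genes both held (Mvd, Idi1, Tm7sf2, Msmo1 and Dhcr7), which is 27.8% of the branch, beside 4.91% of all genes. The median deviation of the branch from each gene's mean was 0.01 to 0.03 on the log2 scale on the De-HA arrays. It was 0.12 on FeMnSi 1, -0.16 on FeMnSi 2 and -0.01 on FeMnSi 3. In these medians the De-HA arrays thus lay between FeMnSi 1 and FeMnSi 2. Gene by gene this did not always hold, and in 5 of the 18 (Sqle, Ebp, Sc5d, Fdft1 and Acat2) all De-HA arrays lay outside the FeMnSi range. FeMnSi 2 and 3 were on the same slide, whereas for FeMnSi 1 slide and replicate cannot be told apart within its group.

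**Figure D2:**
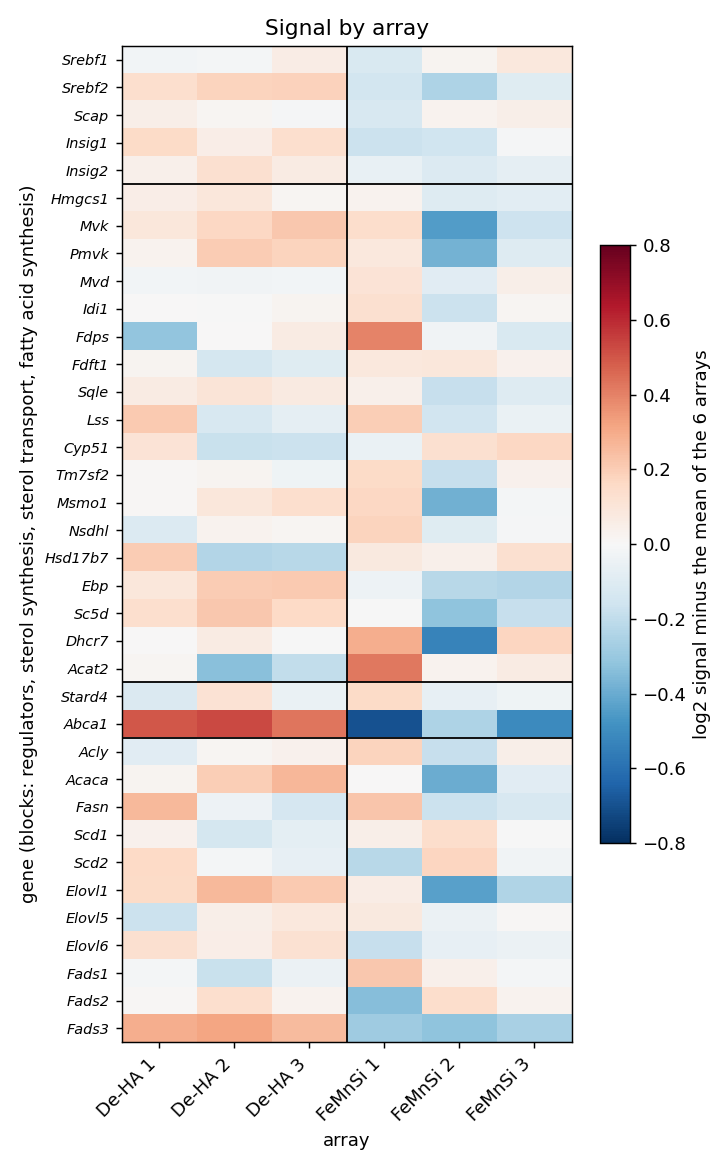
Log2 signal of each of the 36 genes on each of the 6 arrays minus the gene's mean over the arrays (colour, red above and blue below), De-HA arrays left of FeMnSi arrays; horizontal lines part the regulators, sterol synthesis, sterol transport and fatty acid synthesis genes. Abca1 and Fads3 are red on all De-HA and blue on all FeMnSi arrays, while in the sterol synthesis block FeMnSi 1 is the highest array for 8 genes and FeMnSi 2 the lowest for 11.

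Of the sterol transport pair, Abca1 passed and Stard4 did not. Abca1 had signals of 7.11, 7.27 and 6.78 in De-HA 1, 2 and 3 and 3.11, 4.25 and 3.55 in FeMnSi 1, 2 and 3. Every De-HA array was above every FeMnSi array, and the means were 7.05 ± 0.251 in De-HA and 3.64 ± 0.579 in FeMnSi (SD, n = 3 each). Abca1 rose by a log2 fold change of 0.97 ± 0.13 (SE, adjusted p = 0.0105), with a 95% interval from 1.59-fold to 2.41-fold, the largest change of the 36. Within slide 1 the value was 1.18, and Abca1 was the only one of the 36 genes to pass when slide was a block (adjusted p = 0.0274). It passed in 18 of 19 alternatives and failed without FeMnSi 3 (adjusted p = 0.0545). Of the markers of macrophages, cells that also express Abca1, 2 of 6 were called higher and 1 lower. The arrays of the groups were apart with De-HA higher for Ptprc, Adgre1 and Csf1r, and with De-HA lower for Cd14 and Lyz2. Among all genes 26.2% were apart as higher and 13.4% as lower. The summed signal of the 6 markers overlapped between the groups, and that of the 5 without Itgam did not. Their part in the Abca1 result was not tested. The Abca1 signal was low on every array, and the size of the change was not settled. With quantile normalization alone the log2 fold change was 0.80. With normexp (offset 50) on median spot signals followed by quantile normalization it was 0.24, which still passed. That offset is added to every signal and shrinks a log2 fold change most where signals are low, so 0.24 is not a like measure. Stard4, which encodes a soluble sterol carrier, had 776, 909 and 808 in De-HA and 935, 802 and 819.7 in FeMnSi; the groups overlapped, with -0.04 ± 0.11 (SE, adjusted p = 0.822), and -0.40 by its other probe.

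**Figure D3:**
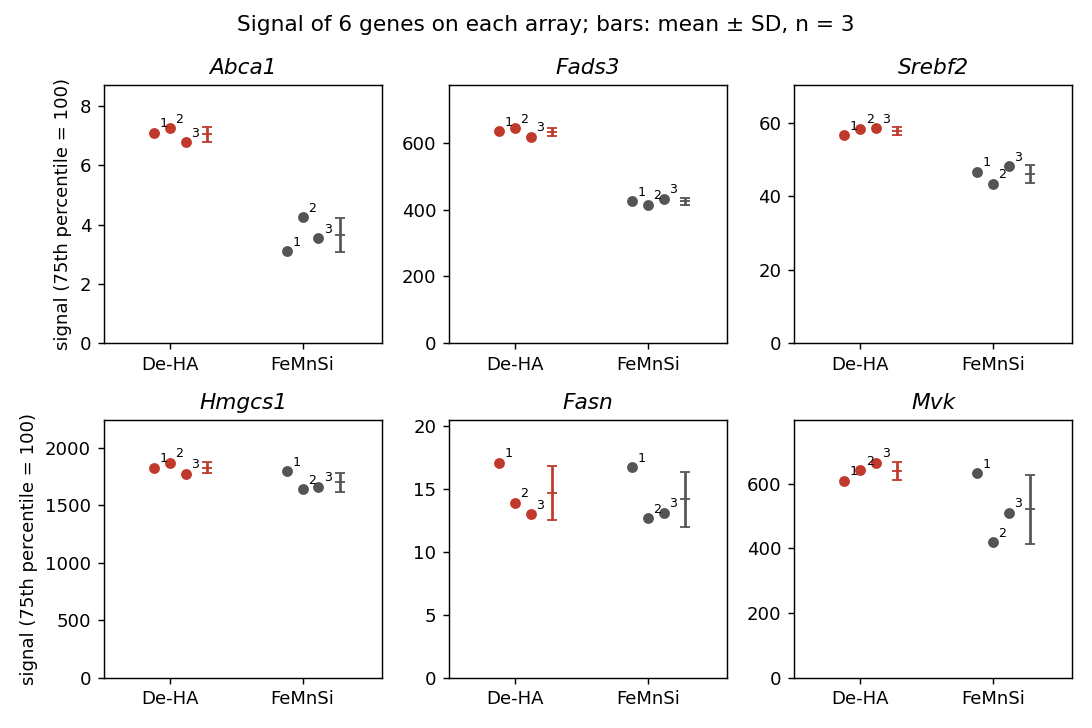
Signal of Abca1, Fads3, Srebf2, Hmgcs1, Fasn and Mvk on each array (points, numbered by replicate), on a scale with the 75th percentile of each array at 100; bars show the mean ± SD (n = 3), with De-HA left of FeMnSi. Abca1, Fads3 and Srebf2 have all De-HA arrays above all FeMnSi arrays, while in Hmgcs1, Fasn and Mvk at least FeMnSi 1 reaches into the De-HA range.

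The fatty acid branch had 1 of 11 genes past the threshold, Fads3, which is 9.09%, beside 10.7% of all genes. The median log2 fold change was 0.05, and 0.15 within slide 1 and -0.0034 under quantile normalization. The arrays were apart for 4 genes that were higher in De-HA (Acaca, Elovl1, Elovl6 and Fads3) and 1 that was lower (Fads1), together 45.5%, beside 39.6% of all genes.

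Acly, ATP-citrate lyase, which supplies acetyl-CoA to both branches, had 2012, 2160.2 and 2191 in De-HA 1, 2 and 3 and 2419, 1886 and 2209 in FeMnSi 1, 2 and 3. FeMnSi 1 was highest and FeMnSi 2 lowest, and the log2 fold change was -0.03 ± 0.11 (SE), with 0.22 by the other probe. With normexp Acly passed as lower, at -0.24 (adjusted p = 0.0476). Acaca, acetyl-CoA carboxylase, the committed step of fatty acid synthesis, had 604, 680.4 and 714 in De-HA and 595, 451 and 557 in FeMnSi. Its arrays were apart, with FeMnSi 1 close to De-HA 1, and its log2 fold change was 0.32 ± 0.13 (SE, adjusted p = 0.137). The other 2 Acaca probes gave 0.46 and 0.38, and the mean of the 3 passed (adjusted p = 0.0293).

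Fasn, fatty acid synthase, which builds palmitate, had 17.1, 13.9 and 13.0 in De-HA 1, 2 and 3 and 16.7, 12.7 and 13.1 in FeMnSi 1, 2 and 3. As in Lss, replicate 1 was highest in both groups; the groups overlapped, with 0.05 ± 0.15 (SE, adjusted p = 0.827). Scd1, a stearoyl-CoA desaturase that makes oleate, had 224, 199 and 207 in De-HA and 226, 241 and 218 in FeMnSi, and its close paralog Scd2 had 3879, 3436 and 3327 in De-HA and 2989.5, 3919 and 3417 in FeMnSi. Both overlapped between the groups, with log2 fold changes of -0.12 ± 0.09 for Scd1 and 0.05 ± 0.13 for Scd2 (SE). Cross-hybridisation with a near-identical paralog was not checked for these or any other gene, because probe sequences were not used here.

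The elongases lengthen fatty acids beyond the product of the synthase. Elovl1, which acts on saturated very long chains, had 641, 691 and 668 in De-HA 1, 2 and 3 and 601, 427 and 489 in FeMnSi 1, 2 and 3. Its arrays were apart and its log2 fold change of 0.41 ± 0.13 (SE, adjusted p = 0.0903) was the highest of the 34 that did not pass. The slide 1 value was 0.15 and the other probe gave 0.13. Without FeMnSi 1, where group and slide coincide, Elovl1 passed (adjusted p = 0.0192). Elovl6, which extends palmitate to stearate, had 819, 778 and 817 in De-HA and 662, 717 and 726 in FeMnSi, with the arrays apart and 0.20 ± 0.08 (SE, adjusted p = 0.149). Elovl5, which extends polyunsaturated chains, had 603, 704 and 723 in De-HA and 718, 659 and 686 in FeMnSi. Its groups overlapped around a log2 fold change of -0.03 ± 0.10 (SE).

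The 3 fatty acid desaturase genes are consecutive protein-coding genes on mouse chromosome 19, in the order Fads3, Fads2, Fads1. Fads3 had signals of 637, 647 and 620.1 in De-HA 1, 2 and 3 and 427, 416 and 434 in FeMnSi 1, 2 and 3. The groups were far apart against their spread, with means of 634 ± 13.4 in De-HA and 425 ± 9.36 in FeMnSi (SD, n = 3 each). Fads3 rose by a log2 fold change of 0.58 ± 0.08 (SE, adjusted p = 0.0109), with a 95% interval from 1.31-fold to 1.69-fold, and 0.57 within slide 1. The size held between 0.46 and 0.59 in all 19 alternatives, while the call was lost in 5. These were slide as a block (adjusted p = 0.0693), slide 1 alone (0.114), and leaving out De-HA 2 (0.0530), De-HA 3 (0.0584) or FeMnSi 3 (0.0553).

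Its neighbours, which encode the front-end desaturases of polyunsaturated fatty acid synthesis, did not pass. Fads2 had 17.02, 18.6 and 17.2 in De-HA 1, 2 and 3 and 13.4, 18.6 and 17.2 in FeMnSi 1, 2 and 3, close between the groups apart from a low FeMnSi 1, which gave 0.40 within slide 1 against 0.11 ± 0.14 over all arrays (SE, adjusted p = 0.572). Fads1 had 108, 96.7 and 106 in De-HA and 127, 112 and 108 in FeMnSi, with De-HA 1 just below FeMnSi 3 (108.03 and 108.04), so that the groups barely failed to overlap, and a log2 fold change of -0.16 ± 0.10 (SE, adjusted p = 0.280). The interval of Fads3 ran from 0.39 to 0.76 on the log2 scale, that of Fads2 from -0.21 to 0.44 and that of Fads1 from -0.40 to 0.08. Differences between these genes were not tested.

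**Figure D4:**
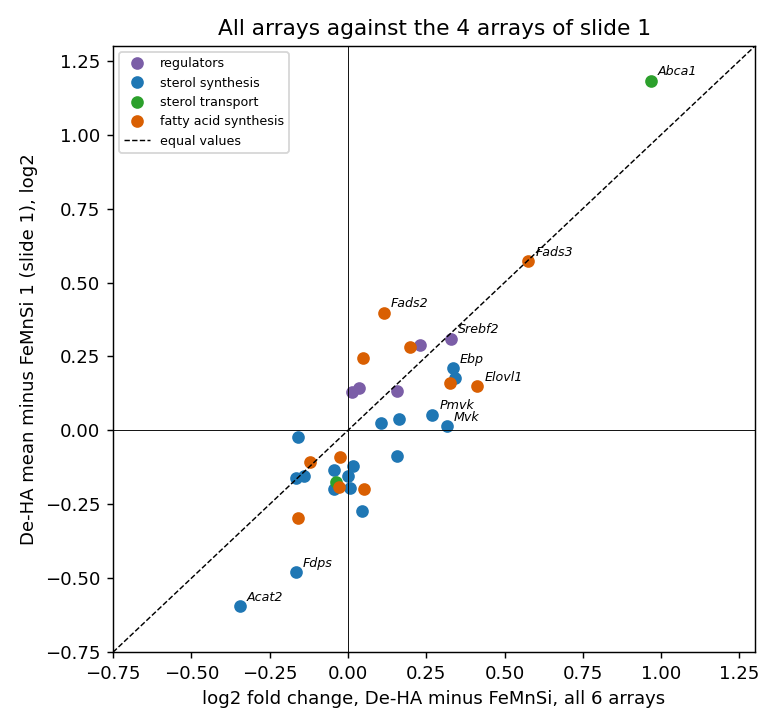
Log2 fold change over all 6 arrays (horizontal axis) against the De-HA mean minus FeMnSi 1, the arrays of slide 1 (vertical axis), for the 36 genes, coloured by branch; the dashed line marks equal values. Fads3 lies on the line (0.58 and 0.57), Abca1 above it (0.97 and 1.18), and Mvk (0.31 and 0.01) and Acat2 (-0.35 and -0.59) below it.

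Set against slide 1, the sign of 5 of the 36 log2 fold changes changed, 4 of them in the sterol synthesis branch, and all 5 were genes that did not pass. Under quantile normalization, which brought the median of all genes from 0.10 to 0.00, 10 of the 36 changed sign, none of which had passed. Relative to the median of all genes, 15 of the 36 lay above and 21 below; in the sterol synthesis branch 6 lay above and 12 below. The sign of the small differences depended on the scale, and Abca1 and Fads3 stayed positive on each scale tried.

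Adjoining pathways were read from 4 further lists, beside the 10.7% of all genes that passed, 6.37% as higher and 4.31% as lower. Of 15 genes of sterol handling outside synthesis 13 were tested and none passed, with 4 at an unadjusted p under 0.05 (30.8%, beside 33.7% of all genes) and a median log2 fold change of 0.13. The smallest p-values were those of Ggps1, which makes the geranylgeranyl diphosphate used in protein prenylation (0.42 ± 0.12 SE, adjusted p = 0.0641), and Mbtps1, the site-1 protease that cleaves SREBP (0.52 ± 0.17 SE, adjusted p = 0.0910). Ggps1 passed with probes above background on all 6 arrays (adjusted p = 0.0498), with the mean of its probes (0.0363), with an intensity trend (0.0349) and without FeMnSi 1 (0.0362), and Mbtps1 passed without FeMnSi 1 (0.0272). Group and slide coincide without FeMnSi 1. Npc2, a lysosomal cholesterol carrier, passed as lower under quantile normalization, at -0.38 (adjusted p = 0.0474). Nr1h2 and Nr1h3, the genes of the liver X receptors that induce Abca1, gave 0.37 (adjusted p = 0.141) and 0.04 (adjusted p = 0.756), and neither passed. Npc2, Nr1h2 and Nr1h3 were named after their values were seen.

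Of 15 tested genes listed as partners of acetyl-CoA metabolism and fatty acid elongation, regulators among them, 1 rose (6.67%, beside 6.37% of all genes). This was Hacd1, which encodes an elongation-cycle dehydratase best known from muscle, with 572, 645 and 638 in De-HA 1, 2 and 3 and 294, 310.3 and 306 in FeMnSi 1, 2 and 3. The groups were far apart, at 1.03 ± 0.09 (SE, adjusted p = 0.00256) and 1.07 within slide 1. Hacd1 also passed when slide was a block (adjusted p = 0.0251), but not when the 4 arrays of slide 1 were fitted alone (0.0682). The median of the 15 was 0.11. Of 14 genes of acyl activation and glycerolipid synthesis 1 rose (7.14%, beside 6.37% of all genes). This was Acsl3, an acyl-CoA synthetase of the endoplasmic reticulum and lipid droplets. Acsl3 had 2099, 2134 and 2111 in De-HA and 1449, 1136 and 1351 in FeMnSi, a log2 fold change of 0.70 ± 0.11 (SE, adjusted p = 0.0159), but missed the threshold once slide was a block (adjusted p = 0.109) and when De-HA 1 (0.0532), De-HA 2 (0.0634), De-HA 3 (0.0724) or FeMnSi 3 (0.0649) was left out. The median of the 14 was 0.09.

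Of 13 genes of fatty acid oxidation 1 fell (7.69%, beside 4.31% of all genes), Cpt1a, which encodes the gatekeeper of mitochondrial fatty acid entry. It had 60.5, 64.7 and 68.8 in De-HA 1, 2 and 3 and 80.7, 89.5 and 84.7 in FeMnSi 1, 2 and 3, with all De-HA arrays lower. The log2 fold change was -0.39 ± 0.09 (SE, adjusted p = 0.0426) and -0.32 within slide 1. Cpt1a lost the call when slide was a block (adjusted p = 0.238) and without any 1 of De-HA 1, 2 and 3 or FeMnSi 2 and 3, at adjusted p from 0.105 to 0.132. It was also lost with median scaling (0.0507), without the filter on dim probes (0.0926) and with the mean of its probes (0.0931). The median of the 13 was -0.06.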

How the data were processed

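Total RNA of 6 samples was hybridised to 6 arrays. Per the submitters' processing notes, the authors used Agilent Feature Extraction 11.0.1.1. Its deposited spot signals are intensity values on a linear scale which, per the file headers, had background subtracted and were detrended within an array, with no scaling between arrays. The authors' deposited matrix holds log2 values whose columns share a median of 5.77 and quartiles of 3.58 and 9.26, and whose sorted values differ between columns by at most 0.159, as quantile normalization gives; its steps are not stated in the labels, and it served as an alternative.

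Each array's log2 signals were shifted by their 75th percentile over non-control spots without an outlier mark. Outlier spots were left out, a probe was kept if 3 or more of the 6 arrays had it well above background, and the probe with the highest mean stood for a gene. Of 39429 probes, 27234 carried 1 gene symbol through RefSeq transcripts (GRCm38.p6) and 12195 carried none. The comparison, De-HA minus FeMnSi, used limma 3.58.1 under R 4.3.3 (lmFit and untrended eBayes, two-sided), with Benjamini-Hochberg adjustment over 15535 genes. The script was tested on simulated data. Figures were drawn with matplotlib 3.10.9.

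Alternatives were quantile and median scaling, the deposited matrix, normexp (offset 50) with quantile normalization, other probe filters, probe averaging, outlier spots kept, an intensity trend, the slide, the replicate number, and leaving out each array. Normexp was run on median spot signals; mean spot signals were not used here. The 36 genes, the other lists and the markers were chosen with earlier results of these data known. All 36 genes were named whatever their result; from each adjoining list, the up to 4 passing genes of smallest p were named, or the 2 of smallest p if none passed. The number of arrays limits the precision.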

Additional observations from a re-analysis of the deposited data

How the results depend on the processing

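Among the 36 genes, Abca1 and Fads3 alone passed under quantile normalization, median scaling, the deposited matrix, no filter on dim probes, outlier spots kept and the replicate block. Over all genes the count of 1658 became 519 without a filter, 194 with the slide as a block, 57 on slide 1 alone and 240 (without FeMnSi 3) to 4476 (without FeMnSi 1) when arrays were left out. The split of 989 higher and 669 lower became 685 and 880 under quantile normalization, 456 and 766 under median scaling, 639 and 935 in the deposited matrix and 857 and 1036 with normexp. In the sterol synthesis branch, where 0 passed and 3 had an unadjusted p under 0.05, normexp gave 2 (Idi1, reversed to -0.26, and Ebp), the intensity trend 2 (Ebp and Sc5d), and leaving out arrays 0 to 3, the 3 without FeMnSi 1. In the fatty acid branch, where 1 passed, normexp gave 2 and the mean of a gene's probes 2, the slide as a block 0 and slide 1 alone 0, and leaving out arrays 0 (De-HA 2, De-HA 3 or FeMnSi 3) to 2 (FeMnSi 1). Among regulators and transport genes, where 1 passed, the filter on all 6 arrays, the intensity trend and the percentile over all non-control spots each gave 2, by adding Srebf2. That percentile matches the wording of the plan, which did not mention leaving outlier spots out of it. It was run as an alternative only after the data were seen. Leaving out arrays gave 0 (FeMnSi 3) to 2 (FeMnSi 1). The cause of these shifts was not tested, and without FeMnSi 1 group and slide coincide.

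The deviations of samples with the same replicate number gave r of 0.01, -0.11 and 0.12 for numbers 1, 2 and 3. Pairs with different numbers gave r from -0.25 to 0.23. With 3 arrays per group these values cannot show whether samples of the same number were handled together. With the replicate block 648 genes passed in place of 1658, and the calls among the 36 did not change; of the genes named from adjoining lists, Cpt1a lost its call (adjusted p = 0.0826).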
